A study of Mus musculus with 4 samples.

Results

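Apoe, Clu, Abca1, Abcg1, Lcat, Lpl, Lrp1 and Vldlr are genes that build, load, trim or take up lipoprotein particles. They were chosen by name, and they are 8 of the 31557 gene symbols in the count table. All 8 had counts in the cells used here. Single cells were sorted for GFP from the dentate gyrus, a part of the hippocampus in which new neurons form in adult mice, and each cell was made into a Smart-seq2 library, which reads full-length polyadenylated RNA. Of 768 wells, 716 held between 500 and 6000 detected genes and were kept, with a median of 650777 counts per cell. Per mouse, 43996495 to 69191485 counts were summed.

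The 353 kept cells of the antagomir group came from 4 male nestin-GFP mice that received 2 µl of the miR-132 antagomir at 0.33 nmol/ml into a brain ventricle. The antagomir is a cholesterol-modified locked nucleic acid oligonucleotide against the microRNA miR-132. The 363 kept cells of the scrambled group came from 4 male nestin-GFP mice that received a scrambled locked nucleic acid oligonucleotide in the same fluid, at a dose not given in the sources used here. Mice were injected at 2 months and analysed at 3 months of age. GFP in these mice is driven by nestin regulatory sequence, which is active in radial glia-like stem cells and also in several cell types of blood vessels. The labels name separate samples but do not tie each of them to 1 of the 8 mice, so the mouse recorded for each well was used as the replicate, numbered 1 to 4 within a treatment. Mature miR-132 was not measured.

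In the brain, glial cells secrete apolipoproteins that carry cholesterol and phospholipid on small particles. ATP-binding cassette transporters load lipid onto these particles, the enzyme LCAT esterifies their cholesterol, lipoprotein lipase releases fatty acids from triglyceride, and receptors of the LDL receptor family take the particles up. Astrocytes are known as the main source of apolipoprotein E in the brain, and a variant of the human gene is the best known common genetic risk factor for late-onset Alzheimer's disease.

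In the GENCODE annotation of build GRCm38 the carriers Apoe and Clu lie at chr7:19696109-19699188 on the minus strand and chr14:65968483-65981547 on the plus strand. Abca1 lies at chr4:53030787-53159895 (minus), Abcg1 at chr17:31057675-31117988 (plus) and Lcat at chr8:105939551-105943382 (minus). Lpl lies at chr8:68880491-68907448 (plus), Lrp1 at chr10:127538161-127621148 (minus) and Vldlr at chr19:27216484-27254231 (plus). Counts are over the exons of a gene, whose merged length runs from 1342 bases in Lcat to 17717 in Lrp1, and levels are compared between genes only per kilobase. No exon of another annotated gene overlaps their exons.

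The kept cells formed 12 clusters, built without the 8 genes and without the other lipid genes described below. By marker genes the clusters fell into 7 classes. The class called RGL or astrocyte-like, in which radial glia-like stem cells and astrocytes were not separated, held 203 cells (28.4%). The others were oligodendrocyte-like (302 cells), endothelial-like (87), mural-like, meaning pericytes or smooth muscle around vessels (82), neuroblast-like (25), fibroblast-like (12) and oligodendrocyte precursor-like (5). All 20 radial glia and astrocyte markers were found in at least 25% of the RGL or astrocyte-like cells. Summed, those markers reached 37017 to 42148 normalised counts (CPM, counts scaled by the total of the sum) in the RGL or astrocyte-like sums of the 8 mice, against 397 to 706 CPM in the oligodendrocyte-like, 327 to 1573 CPM in the mural-like and 392.5 to 1269 CPM in the endothelial-like sums. Classes were compared by summing the counts of a class within each mouse. Scrambled replicate 4 had 3 endothelial-like cells, under the minimum of 5, so endothelial-like values rest on 7 mice. Because the classes were formed from other genes of the same cells, the p-values below describe how regularly a difference recurred over mice and are not an independent test of the classes.

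Among the carriers, Apoe, the gene of apolipoprotein E, was high in RGL or astrocyte-like cells and lower, but present in nearly every cell, among oligodendrocyte-like cells. Its level in RGL or astrocyte-like sums had a lowest value of 31045, a median of 35734 and a highest value of 42066 CPM, and a mean of 36109 ± 4848 CPM (SD, n = 8 mice). In oligodendrocyte-like sums the lowest value was 3446, the median 6292 and the highest 8605 CPM (6220 ± 1558, SD, n = 8). The ranges of these classes did not overlap, and within a mouse the ratio of the RGL or astrocyte-like to the oligodendrocyte-like level was 6.15 ± 1.69 (SD, n = 8, 3.61 to 9.03). Endothelial-like sums averaged 1466 ± 699 CPM (SD, n = 7), and mural-like sums 1115 ± 1933 CPM (SD, n = 8), of which antagomir replicate 4 alone had 5777 CPM. Without that mouse the mural-like mean was 449 CPM. The 12 pooled fibroblast-like cells had 23108 CPM, the 5 oligodendrocyte precursor-like cells 5684 CPM and the 25 neuroblast-like cells 46.9 CPM. Of the 20 radial glia and astrocyte markers, 8 were found in at least 25% of the fibroblast-like cells and 7 were at 0 there, among them Aqp4, Aldoc and Gfap, and the part of these markers in that Apoe level was not tested.

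The order of Apoe levels was regular over mice down to the oligodendrocyte-like class. It was higher in RGL or astrocyte-like than in oligodendrocyte-like cells in 8 of 8 mice (exact sign-flip test, two-sided p = 0.00781, the smallest 8 mice can give). It was higher in oligodendrocyte-like than in endothelial-like cells in 7 of 7 mice (exact sign-flip test, p = 0.0156, the smallest 7 mice can give). Endothelial-like and mural-like cells did not differ beyond their spread (exact sign-flip test, p = 0.109). These p-values are unadjusted, and 24 such neighbouring pairs were tested over the 8 genes.

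**Figure D1:**
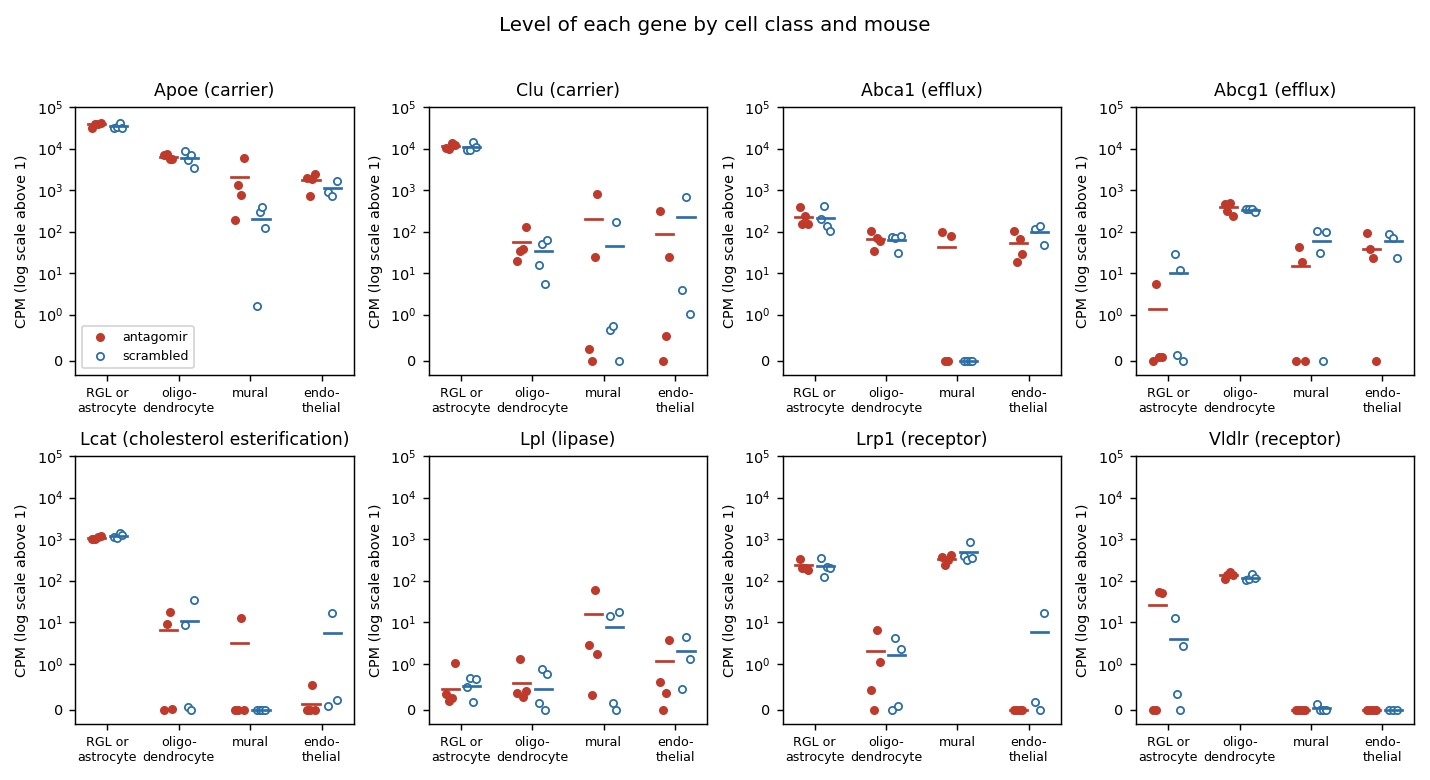
Level of each gene in CPM (axis linear below 1 and logarithmic above) in the 4 classes with sums of at least 5 cells; each point is 1 mouse, filled red for antagomir and open blue for scrambled, and each bar is the mean of a treatment. Apoe, Clu and Lcat are highest in RGL or astrocyte-like cells in every mouse, Abcg1 and Vldlr in oligodendrocyte-like cells, and Lrp1 in mural-like cells.

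Clu, the gene of clusterin or apolipoprotein J, another secreted carrier that also acts as a chaperone, was far more restricted. RGL or astrocyte-like sums ran from 9232 over a median of 10630 to 14175 CPM (11141 ± 1910, SD, n = 8), and oligodendrocyte-like sums from 5.61 over a median of 36.1 to 128 CPM (44.4 ± 38.5, SD, n = 8). The mouse with the lowest RGL or astrocyte-like value stood far above the highest value of the other 3 classes tested. Endothelial-like sums averaged 148 ± 264 CPM (SD, n = 7), or 57.9 CPM without scrambled replicate 2, and mural-like sums 123 ± 274 CPM (SD, n = 8), or 28.6 CPM without antagomir replicate 4. The 5 oligodendrocyte precursor-like cells had 1639 CPM, with counts in all 5, of which 4 came from 1 mouse. The fibroblast-like cells, high in Apoe, had 0.36 CPM of Clu, at the level of 3 counts in all.

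Shares of cells showed the same contrast between the carriers. Apoe had at least 1 count in 98.5% of RGL or astrocyte-like cells (95.7 to 99.5%, a Wilson 95% interval) and in 98.0% of oligodendrocyte-like cells (95.7 to 99.1%). For Clu the shares were 93.6% among RGL or astrocyte-like cells (89.4 to 96.2%) and 21.5% among oligodendrocyte-like cells (17.3 to 26.5%). Demanding at least 10 counts left the Apoe shares at 97.5% in RGL or astrocyte-like and 97.4% in oligodendrocyte-like cells, while the Clu shares were 93.6% and 10.3% in the same order of classes. As a class in which few cells should express it, the neuroblast-like class had at least 1 Apoe count in 44.0% of its 25 cells (26.7 to 62.9%) and at least 10 in 3 cells, at a median depth of 572684 counts, against 554118 in RGL or astrocyte-like and 829784 in oligodendrocyte-like cells. These intervals and those below are taken over cells pooled from all mice and leave out the spread between mice. Over mice the Clu share of oligodendrocyte-like cells ran from 9.76 to 29.5%. Limits cover counting error only, and reads without molecular identifiers are not independent molecules.

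Radial glia and astrocyte markers in cells of the other classes were counted beside these values. Nes was among them, so a marker count below may include it. It had at least 10 counts in 57.7%, 60.0% and 65.7% of cells in the oligodendrocyte-like clusters 0, 1 and 7. In mural-like cells that share was 91.5%. Of the 31 oligodendrocyte-like cells with at least 10 Clu counts, 20 had at least 10 counts of 3 or more of these markers, against 68 of the 271 without. All 3 neuroblast-like cells with at least 10 Apoe counts had 3 or more of these markers, against 3 of the other 22. The part of such cells in the Clu values of oligodendrocyte-like cells, or in the Apoe values of neuroblast-like cells, was not tested. For Apoe, the 19 oligodendrocyte-like cells with none of the markers had a median of 3742 CPM, the 195 with 1 or 2 markers 5031 CPM and the 88 with 3 or more 4910 CPM. Antagomir replicate 4, with the highest mural-like Apoe and Clu, also had the highest summed marker level there, 1573 CPM, against 327 to 678 CPM in the other mice, and 1 cell held 40.2% of all mural-like Apoe counts. The part of those markers in its values was not tested.

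**Figure D2:**
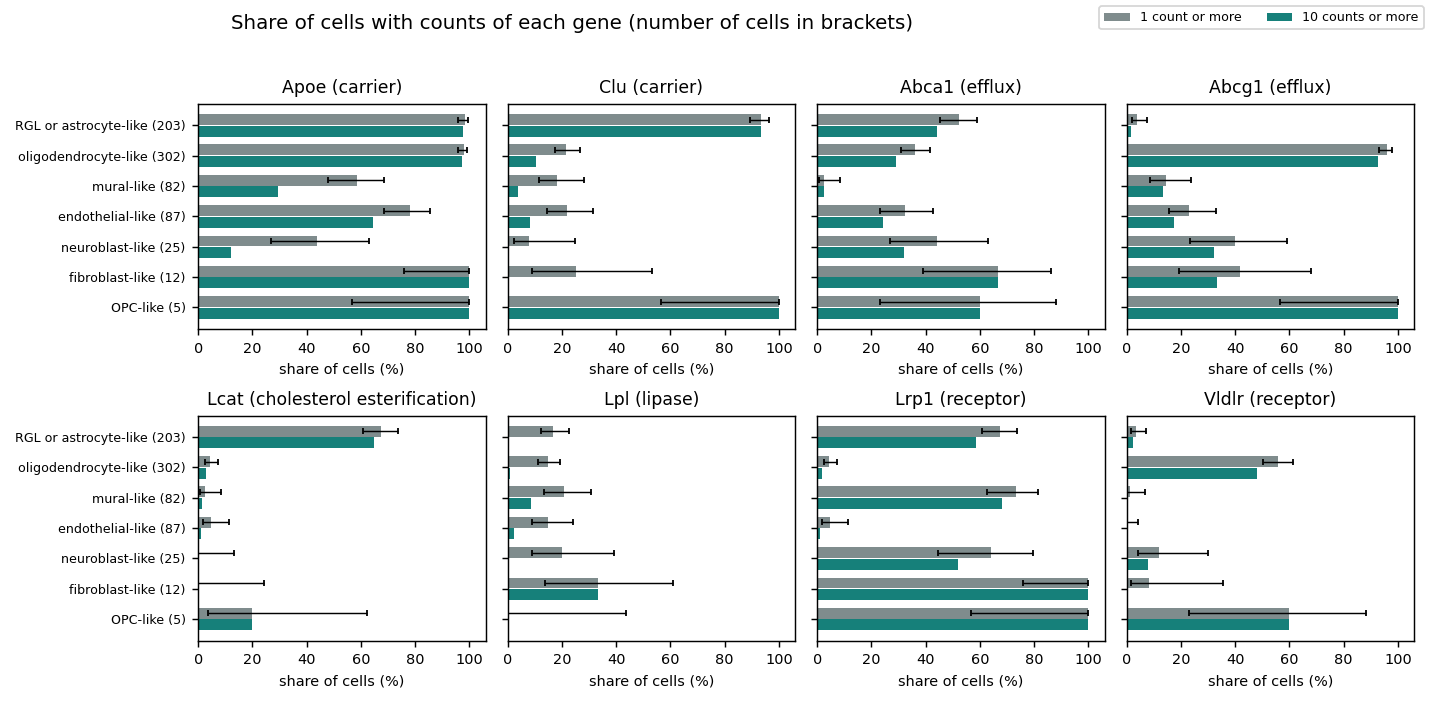
Share of cells in percent with at least 1 count (grey, with Wilson 95% intervals) and with at least 10 counts (green) of each gene in the 7 classes. Apoe is near 98% in both RGL or astrocyte-like and oligodendrocyte-like cells, whereas Clu and Lcat fall to 21.5% and 4.30% in oligodendrocyte-like cells and Abcg1 is at 96.0% there.

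Lcat, the enzyme that esterifies cholesterol on the particle, followed Clu. Its level was 993 to 1382 CPM in the RGL or astrocyte-like sums, with a median of 1123 (1142 ± 131 CPM, SD, n = 8), and 0 to 33.4 CPM in the oligodendrocyte-like sums, with a median of 4.33 (8.56 ± 11.9 CPM, SD, n = 8, or 5.0 CPM without scrambled replicate 4). Over mice it was the steadiest of the 8 genes in this class, with an SD of 11.46% of the mean, against 13.4% for Apoe and 52.6% for Abca1. Mural-like sums averaged 1.57 CPM, or 0 without antagomir replicate 3, and endothelial-like sums 2.49 CPM, or 0.14 without scrambled replicate 2. The fibroblast-like and neuroblast-like cells were at 0, which allows up to 0.36 CPM and 0.22 CPM. Lcat had counts in 67.5% of RGL or astrocyte-like cells (60.8 to 73.6%, Wilson) against 4.30% of oligodendrocyte-like cells (2.53 to 7.22%). RGL or astrocyte-like cells held 98.1% of all Lcat counts and 97.8% of all Clu counts, but 24.2% of the counts of all genes.

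The efflux transporters differed in how they were spread over the glial classes. Abca1, which moves cholesterol and phospholipid onto lipid-poor apolipoproteins, was highest in RGL or astrocyte-like sums among the 4 classes compared over mice, from 105 over a median of 178 to 423 CPM (224 ± 118, SD, n = 8). Endothelial-like sums averaged 73.6 ± 45.0 CPM (SD, n = 7) and oligodendrocyte-like sums 64.9 ± 23.4 CPM (SD, n = 8, 29.8 to 101 CPM). Abca1 had counts in 52.2% of RGL or astrocyte-like cells (45.4 to 59.0%, Wilson) and in 36.1% of oligodendrocyte-like cells (30.9 to 41.7%). These classes held 45.7% and 32.1% of all Abca1 counts, in the same order, beside 24.2% and 50.8% of the counts of all genes. The RGL or astrocyte-like level exceeded the endothelial-like level in 7 of 7 mice (exact sign-flip test, p = 0.0156), and endothelial-like and oligodendrocyte-like cells did not differ beyond their spread (exact sign-flip test, p = 0.938). In mural-like sums 6 of 8 mice were at 0, and antagomir replicates 1 and 4 had 95.7 and 77.7 CPM, each from 1 cell. Pooled over mice, the 12 fibroblast-like cells had 399 CPM, the 5 oligodendrocyte precursor-like cells 245 CPM and the 25 neuroblast-like cells 171 CPM, against 202 CPM in the pooled RGL or astrocyte-like cells.

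Abcg1, which passes cholesterol to particles that already carry lipid, was high in oligodendrocyte-like cells and near 0 in most RGL or astrocyte-like sums. Oligodendrocyte-like sums ran from 241 over a median of 344 to 498 CPM (358 ± 85.6, SD, n = 8), and RGL or astrocyte-like sums from 0 over a median of 0.10 to 29.2 CPM (5.82 ± 10.3, SD, n = 8). No RGL or astrocyte-like sum came near the lowest oligodendrocyte-like one. Without scrambled replicate 1, in which 1 of 23 cells held the counts, the RGL or astrocyte-like mean was 2.49 CPM. Abcg1 had counts in 96.0% of oligodendrocyte-like cells (Wilson 95% interval 93.2 to 97.7%) against 3.94% of RGL or astrocyte-like cells (2.01 to 7.58%). Endothelial-like sums averaged 47.8 ± 35.8 CPM (SD, n = 7) and mural-like sums 36.7 ± 42.6 CPM (SD, n = 8), and the 5 oligodendrocyte precursor-like cells had 384 CPM. Oligodendrocyte-like cells, with 50.8% of the counts of all genes, held 90.8% of the Abcg1 counts and 92.0% of the Vldlr counts.

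Lpl, the gene of lipoprotein lipase, was close to undetected in glia. RGL or astrocyte-like sums stayed between 0.18 and 1.05 CPM, and no RGL or astrocyte-like cell had 10 counts, although 16.7% had at least 1. Mural-like sums averaged 11.8 ± 19.98 CPM (SD, n = 8), or 5.19 CPM without antagomir replicate 3, at 58.4 CPM the highest. The 12 fibroblast-like cells had 126 CPM, from 4 cells, and held 55.5% of all Lpl counts. None of the neighbouring classes of Lpl passed the sign-flip test.

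Of the receptors, Lrp1, a large endocytic receptor for apolipoprotein E and many other ligands, was shared by mural-like and RGL or astrocyte-like cells. Mural-like sums ran from 239 over a median of 358 to 860 CPM (409 ± 191, SD, n = 8), and RGL or astrocyte-like sums from 119 over a median of 204 to 350 CPM (226 ± 79.2, SD, n = 8). The ranges overlapped, but within each mouse the mural-like level was higher, by a ratio of 1.96 ± 1.00 (SD, n = 8, 1.08 to 4.001; exact sign-flip test, p = 0.00781). In the model fitted across all genes the difference between these classes did not pass (edgeR, log2 difference RGL or astrocyte-like minus mural-like -0.21, SE 1.06, adjusted p = 0.938). Oligodendrocyte-like sums averaged 1.85 ± 2.43 CPM (SD, n = 8) and endothelial-like sums 2.46 CPM, or 0.03 CPM without scrambled replicate 3. The 12 fibroblast-like cells had 1106 CPM and the 5 oligodendrocyte precursor-like cells 1868 CPM.

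Vldlr, a receptor for apolipoprotein E particles and, in neurons, for reelin, was highest in oligodendrocyte-like cells among the 4 classes compared over mice. Its sums there ran from 105 over a median of 125 to 163 CPM (126 ± 20.8, SD, n = 8), and 56.0% of the cells had counts (Wilson 95% interval 50.3 to 61.4%). RGL or astrocyte-like sums averaged 15.01 ± 23.4 CPM (SD, n = 8). That mean rested on antagomir replicates 3 and 4, at 54.4 and 50.2 CPM, while 3 mice were at 0. Oligodendrocyte-like cells were higher in 8 of 8 mice (exact sign-flip test, p = 0.00781). No endothelial-like cell had a count, 0 of 87, which allows a share of cells with a count of up to 3.45% (3 cells) and says nothing of cells that express the gene without a count. The 5 pooled oligodendrocyte precursor-like cells had 90.1 CPM, with at least 10 counts in 3 of them, and the 25 neuroblast-like cells 57.9 CPM, with counts in 3.

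Set side by side per kilobase of exon, the 8 genes ranked differently in each class. In RGL or astrocyte-like cells Apoe had 16889, Clu 3242 and Lcat 851 CPM per kb, followed by Abca1 with 21.6 and Lrp1 with 12.8. In oligodendrocyte-like cells Apoe had 2909 CPM per kb and Abcg1 was next with 49.0, while Clu had 12.9 and Vldlr 12.5. The Clu mean there was 44.4 CPM, or 32.6 CPM without antagomir replicate 4 (not per kb), so Clu and Vldlr are not ranked in that class. Mural-like cells had 521 CPM per kb of Apoe, 35.8 of Clu and 23.1 of Lrp1. Apoe and Clu there rested on antagomir replicate 4, without which the class means were 449 CPM for Apoe and 28.6 CPM for Clu (not per kb), so Clu and Lrp1 are not ranked in that class.

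The class differences were then tested in a model across all genes, with the mouse as a block. Between RGL or astrocyte-like and oligodendrocyte-like cells 16.6% of 15671 genes passed an adjusted p of 0.05 (edgeR's quasi-likelihood test with Benjamini-Hochberg adjustment), 10.9% higher and 5.72% lower in RGL or astrocyte-like cells. Of the 8 genes 6 passed, with Apoe, Clu, Lcat and Lrp1 higher and Abcg1 and Vldlr lower. A gene could enter this fit through the class where it was high, so counts of the 8 genes are a description and no support for them as a set. Apoe was higher by 2.34 on the log2 scale (SE 0.62, edgeR adjusted p = 0.00893), where the median gene differed by 0.17. Against mural-like cells 22.0% of genes passed (17.9% higher, 4.18% lower) and 5 of the 8, Apoe, Clu, Abca1, Lcat and Vldlr, were higher in RGL or astrocyte-like cells. Against endothelial-like cells 23.5% passed (18.3% higher, 5.19% lower), and Apoe, Clu, Lcat, Lrp1 and Vldlr were higher. Between oligodendrocyte-like and mural-like cells 22.2% passed (15.5% higher, 6.64% lower), with Apoe, Abca1, Abcg1 and Vldlr higher and Lrp1 lower in oligodendrocyte-like cells. Between oligodendrocyte-like and endothelial-like cells 21.6% passed (14.4% higher, 7.19% lower), with Apoe and Vldlr higher in oligodendrocyte-like cells. Between mural-like and endothelial-like cells 9.12% passed (4.38% higher, 4.73% lower), and Lrp1 was higher in mural-like cells. The median gene was higher by 1.55 and 1.59 on the log2 scale in RGL or astrocyte-like cells than in mural-like and endothelial-like cells, and Apoe exceeded that median by 4.79 against mural-like and by 3.46 against endothelial-like cells.

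Several of these calls rested on few mice or on the fit. Vldlr lost its call between RGL or astrocyte-like and oligodendrocyte-like cells without scrambled replicate 1 (edgeR adjusted p = 0.0568) or scrambled replicate 2 (adjusted p = 0.0524), and against endothelial-like cells without scrambled replicate 1 (adjusted p = 0.0540) or in a fit of these classes alone (adjusted p = 0.103). Its call against mural-like cells rested on 5 of 8 mice (exact sign-flip test, p = 0.0625), with 3 RGL or astrocyte-like sums at 0 and at least 10 counts in 5 of 203 cells. Abca1 between oligodendrocyte-like and mural-like cells (log2 difference 5.65, edgeR adjusted p = 0.0376) lost its call without scrambled replicate 1, 2, 3 or 4 or antagomir replicate 2 or 3, with log2 differences of 4.35 to 4.60. Abca1 between RGL or astrocyte-like and oligodendrocyte-like cells did not pass in the fit of all 4 classes (log2 difference 1.59, SE 1.18, edgeR adjusted p = 0.477), though its level was higher by a ratio of 3.61 ± 1.45 (SD, n = 8, 1.32 to 5.92), and it passed in a fit of these classes alone (1.48, SE 0.27, edgeR adjusted p = 0.0025). Well names began with L5 or L6, of 4 mice each, and these groups of wells are called pools here. Apoe averaged 36055 CPM in L5 and 36164 CPM in L6 in RGL or astrocyte-like sums, and its difference from oligodendrocyte-like cells was 2.06 in L5 (edgeR adjusted p = 0.215) and 2.55 in L6 (adjusted p = 0.0306).

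The RGL or astrocyte-like class was made of 4 clusters, among which the carriers varied. As a description with no test, Apoe averaged 39235 ± 5026 CPM in cluster 2 (SD, n = 8 mice with at least 3 cells), 36153 ± 6208 in cluster 5 (n = 4), 48133 ± 4944 in cluster 6 (n = 5) and 22160 ± 15669 in cluster 8 (n = 6, 528 to 44275). Clu followed the same order, with 15392 ± 5665 CPM in cluster 6 and 4574 ± 3236 CPM in cluster 8. Lcat did not, at 1712 ± 299 CPM in cluster 2 and 311 ± 374 CPM in cluster 8. Cluster 8, of 34 cells, was led by Frzb, Ccnd2, Hmgb2 and Tnc, and the proliferation gene Mki67 had at least 10 counts in 17.6% of its cells. Cluster 6, of 37 cells, had 836 detected genes per cell at the median, with 11.51% of counts from mitochondrial genes. Of the 44 cells of cluster 5, 75.0% came from pool L6. The part of gene number or pool in these cluster values was not tested.

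**Figure D3:**
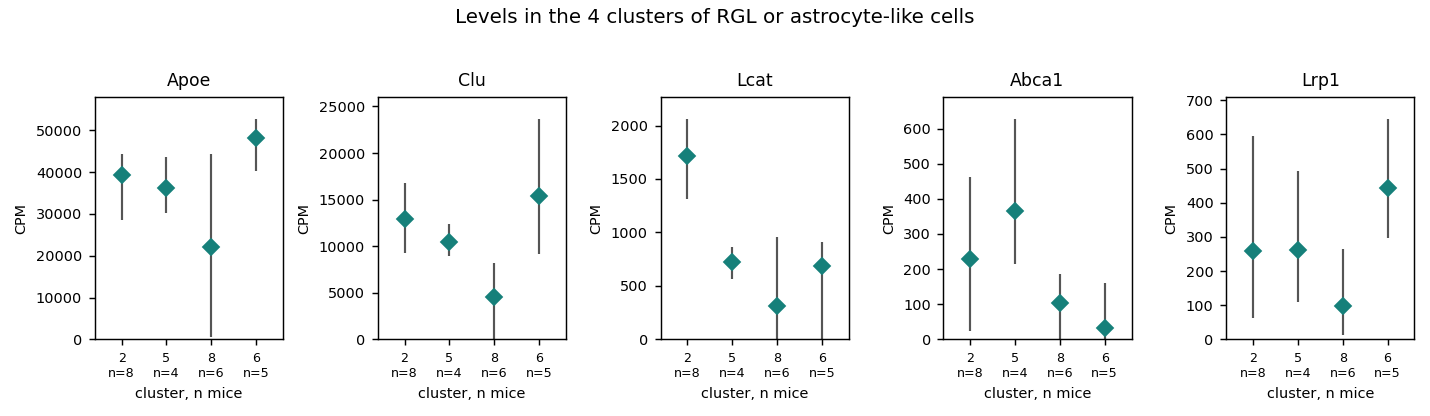
Level in CPM of Apoe, Clu, Lcat, Abca1 and Lrp1 in the 4 clusters of the RGL or astrocyte-like class; each diamond is the mean over mice with at least 3 cells in the cluster, and the line runs from the lowest to the highest mouse. Cluster 8, led by Frzb, Ccnd2 and Hmgb2, has the lowest Apoe, Clu and Lcat means and the widest spread of Apoe over mice.

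Within the class single cells were spread widely in Apoe, with a 10th percentile of 11067, a median of 36221 and a 90th percentile of 56743 CPM. Centred on each mouse, Apoe and Clu had a Spearman correlation of 0.73 over the 203 cells, of which 188 had at least 10 counts of both. Apoe and the total counts of the cell had 0.23 over the same cells, and Apoe and Lcat 0.28. Cells of a mouse share their library preparation and their depth, so no test is attached to these values.

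The antagomir and scrambled mice were compared in the same sums. Because miR-132 binds targets through its seed, its mature sequence is shown with bases 2 to 8 in capitals.
mmu-miR-132-3p: uAACAGUCuacagccauggucg
The microRNA lies at chr11:75173723-75173744 on the plus strand (RefSeq, GRCm38.p6).

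In RGL or astrocyte-like cells none of 11359 genes passed an adjusted p of 0.05 between antagomir and scrambled mice (0.00% of genes, edgeR's quasi-likelihood test). At the same threshold DESeq2 called 8 and limma 0. In edgeR 176 genes (1.55%) were under 0.05 unadjusted, where a calibrated test without differences would put a share of 0.05. The edgeR p-values and intervals may be too cautious here and in the treatment fits below, which was not tested. Apoe had 32009, 38822, 39508 and 42066 CPM in the antagomir mice, against 31045, 32646, 41657 and 31120 CPM in the scrambled mice. The groups overlapped, with scrambled replicate 3 as high as the upper antagomir mice. The log2 difference antagomir minus scrambled was 0.13 (SE 0.19, 95% interval -0.29 to 0.56, edgeR unadjusted p = 0.501). Within the pools it was -0.12 in L5 and 0.38 in L6.

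The other genes of that class overlapped between the treatments too. Clu had 10165, 9509, 13367 and 12185 CPM in antagomir mice, against 9232, 9403, 14175 and 11094 CPM in scrambled mice (edgeR log2 difference 0.01, 95% interval -0.47 to 0.49). Lcat had 993, 1003, 1123 and 1177 CPM in antagomir mice, against 1122, 1077, 1382 and 1263 CPM in scrambled mice (edgeR -0.20, 95% interval -0.64 to 0.24). Lcat was thus the one abundant gene with the lower mean in antagomir mice, and its groups overlapped between 1077 and 1177 CPM. Each combination of sort day and pool held 1 mouse of each treatment, and within these 4 pairs Lcat was lower in the antagomir mouse each time, with a log2 difference of -0.21 (SE 0.17, edgeR adjusted p = 1.00) when they were fitted as a block. The share of all genes with the same direction in all 4 pairs was not counted, and the pairing was not borne out by correlations given below. Abca1 averaged 230 ± 108 CPM in antagomir and 217 ± 143 CPM in scrambled mice, and Lrp1 232 ± 73.0 CPM in antagomir and 220 ± 96.0 CPM in scrambled mice (SD, n = 4 each). Their edgeR intervals ran from -0.90 to 1.05 for Abca1 and from -0.76 to 0.83 for Lrp1. Abcg1 and Lpl did not pass the filter on low counts in this class. Vldlr had 0, 0, 54.4 and 50.2 CPM in antagomir mice, against 12.4, 0.35, 0 and 2.73 CPM in scrambled mice (edgeR 2.74, SE 2.38), with counts in few cells of either group.

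In oligodendrocyte-like cells none of 10778 genes passed (0.00%, edgeR), with 214 (1.99%) under 0.05 unadjusted, and DESeq2 called 13 and limma 0. Apoe had 6837, 7329, 5528 and 5747 CPM in antagomir mice, against 8605, 5331, 6937 and 3446 CPM in scrambled mice, whose values enclosed those of the antagomir mice. Its edgeR log2 difference was 0.03 (SE 0.27, 95% interval -0.58 to 0.63), with -0.37 within pool L5 and 0.58 within pool L6. Abcg1 had 470, 318, 498 and 241 CPM in antagomir mice, against 343, 351, 345 and 297 CPM in scrambled mice (edgeR 0.18, 95% interval -0.37 to 0.72). The antagomir mice enclosed the scrambled ones here. Vldlr had 107, 134, 163 and 135 CPM in antagomir mice, against 105, 107, 141 and 115 CPM in scrambled mice (edgeR 0.18, 95% interval -0.30 to 0.65), with overlapping groups. Within the 4 pairs of sort day and pool Vldlr was higher in the antagomir mouse each time (0.18, SE 0.17, edgeR adjusted p = 1.00, with the pairs as a block). As for Lcat, the share of all genes with the same direction in all 4 pairs was not counted. Abca1 averaged 66.3 ± 27.4 CPM in antagomir and 63.5 ± 22.8 CPM in scrambled mice (SD, n = 4 each). Clu had 20.1, 34.9, 37.4 and 128 CPM in antagomir mice, against 15.8, 49.9, 5.61 and 64.2 CPM in scrambled mice (edgeR 0.70, SE 0.75).

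Mural-like and endothelial-like sums held under 10 cells in some mice, so no treatment test was made there. Mural-like Apoe had 194, 1357, 772 and 5777 CPM in antagomir mice, against 1.61, 293, 402 and 123 CPM in scrambled mice. The antagomir values lay mostly higher, and the groups overlapped between 194 and 402 CPM. Summed radial glia and astrocyte markers, with Nes among them, were 425 to 1573 CPM in the mural-like sums of antagomir mice. In those of scrambled mice they were 327 to 566 CPM, and their part in the Apoe values was not tested. Endothelial-like Apoe had 1949, 706, 1805 and 2497 CPM in antagomir mice, against 906, 707 and 1694 CPM in the 3 scrambled mice with enough cells, and mural-like Lrp1 had 368, 239, 316 and 418 CPM in antagomir mice, against 403, 319, 860 and 347 CPM in scrambled mice. Both pairs of groups overlapped.

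Summed over all kept cells, where fewer cells of a type and less RNA per cell cannot be told apart, none of 15447 genes passed (0.00%, edgeR), with 280 (1.81%) under 0.05 unadjusted, and DESeq2 called 10 and limma 0. Apoe had 10189, 20917, 13236 and 12532 CPM in antagomir mice, against 11209, 8063, 13642 and 11008 CPM in scrambled mice. Antagomir replicate 2 stood above all others, and 47.8% of its cells were RGL or astrocyte-like, against 20.7 to 34.5% in the other mice of both treatments. The edgeR log2 difference of Apoe was 0.34 (SE 0.30, 95% interval -0.34 to 1.01) and 0.11 without that mouse. The share of RGL or astrocyte-like cells was 30.8 ± 11.8% in antagomir and 26.0 ± 5.93% in scrambled mice (SD, n = 4 each, exact permutation test, p = 0.543).

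**Figure D4:**
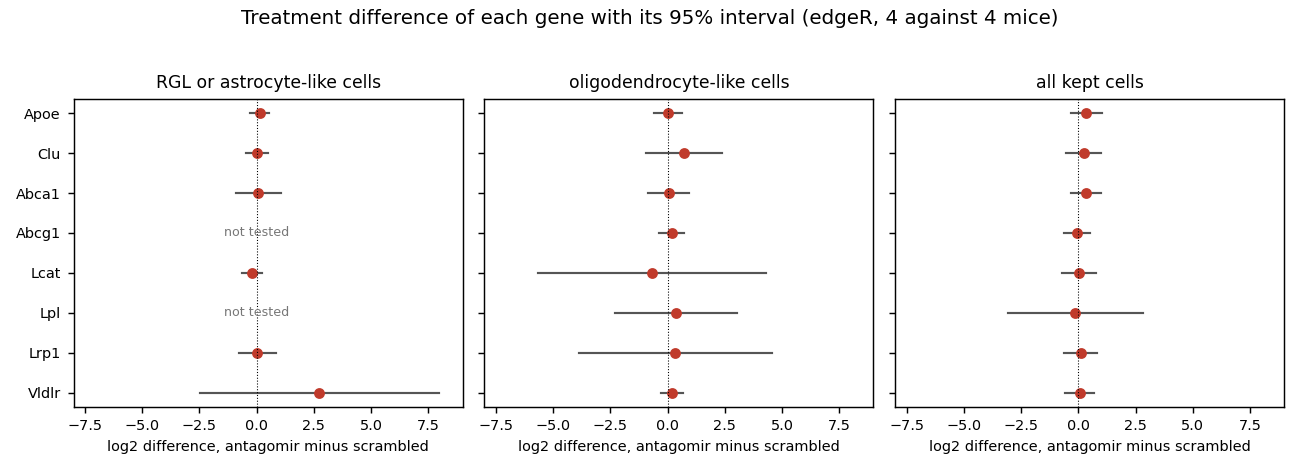
Log2 difference antagomir minus scrambled of the genes in RGL or astrocyte-like, oligodendrocyte-like and all kept cells, as edgeR estimates (points) with 95% intervals (lines). Each of the intervals drawn includes 0, Abcg1 and Lpl were not tested in RGL or astrocyte-like cells, and those of Apoe run from -0.29 to 0.56 in RGL or astrocyte-like and from -0.58 to 0.63 in oligodendrocyte-like cells.

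The responses of the classes were also set against each other. The antagomir difference of Apoe was 0.05 larger on the log2 scale in RGL or astrocyte-like than in oligodendrocyte-like cells (SE 0.31, edgeR interaction, adjusted p = 1.00), and 0.00% of 16342 genes passed this test, with 297 (1.82%) under 0.05 unadjusted. The share of cells with counts was compared for the 8 genes in RGL or astrocyte-like, oligodendrocyte-like and all kept cells. The smallest of the 24 p-values was 0.114 (two-sided exact permutation test over mice), where 4 against 4 mice can reach 0.0286.

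Other genes of lipid transport, in lists chosen by function, were read from the same fits. Between RGL or astrocyte-like and oligodendrocyte-like cells, 10.9% of all genes were higher and 5.72% lower, as given above, and the median gene differed by 0.17. A list gene entered the test only with enough counts in some class, so the counts below describe the genes tested and are no support for a list. Of 15 apolipoprotein genes 6 were tested, and Apoe, Clu, Apoa1 and Apoc1 were higher and 1 lower. Apoa1 averaged 2.54 ± 4.30 CPM and Apoc1 5.44 ± 5.13 CPM in RGL or astrocyte-like cells, and both were at 0 in oligodendrocyte-like cells (SD, n = 8 each). The lower one was Apod, a lipocalin that carries small lipids, which averaged 0.83 ± 1.33 CPM in RGL or astrocyte-like and 6075 ± 1397 CPM in oligodendrocyte-like cells (SD, n = 8 each). Of 17 efflux and transfer genes 3 were higher (Lcat, Pltp and Abcg4) and 3 lower (Abcg1, Abca2 and Abca8a), with a median of -0.47. Abca2, a transporter of myelinating cells, averaged 59.1 ± 30.8 CPM in RGL or astrocyte-like and 936 ± 246 CPM in oligodendrocyte-like cells (SD, n = 8 each). Of 24 receptor and partner genes 6 were higher (Lrp1, Lrp3, Lrp5, Lrp8, Dab1 and Reln) and 1, Vldlr, lower. Reln averaged 40.3 ± 103 CPM in the RGL or astrocyte-like class (SD, n = 8), with 80.5 ± 142 CPM in antagomir and 0.09 ± 0.18 CPM in scrambled mice (SD, n = 4 each). Its class call therefore rested on antagomir mice, whose SD was larger than their mean. Lrp8, the other apolipoprotein E receptor that binds reelin, averaged 40.5 ± 15.02 CPM in RGL or astrocyte-like and 0.01 CPM in oligodendrocyte-like cells, and 163 ± 133 CPM in endothelial-like cells (SD, n = 7).

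Among 16 fatty acid carrier and lipid droplet genes 6 were higher in RGL or astrocyte-like cells (Slc27a1, Acsl3, Acsl6, Acsbg1, Soat1 and Fabp7) and Dgat2 was lower, with a median of 3.50. Acsbg1, an acyl-CoA synthetase, averaged 1323 ± 309 CPM in RGL or astrocyte-like and 7.01 ± 12.3 CPM in oligodendrocyte-like cells (SD, n = 8 each). Of 11 lipases and partners Mgll and Angptl4 were higher, and of 10 nuclear receptor regulators Ppara and Ppargc1a. These were 2 of each list, beside 10.9% of all genes that were higher, and counts this small are not read as a result about a list. Lipid-transfer gene Pltp was highest outside the glia, with 7793 ± 741 CPM in endothelial-like cells (SD, n = 7), against 26.9 ± 34.3 CPM (SD, n = 8) in the RGL or astrocyte-like class. Between antagomir and scrambled mice no gene of these lists passed in any of the 3 sets of cells (edgeR). The smallest unadjusted p-values were those of Reln in RGL or astrocyte-like cells (edgeR adjusted p = 1.00) and of Lrpap1, a chaperone of LDL receptor family members, in oligodendrocyte-like cells (antagomir 210 ± 23.9, scrambled 133 ± 24.5 CPM, SD, n = 4 each, edgeR adjusted p = 1.00).

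Over the 32 sums of at least 5 cells per mouse and class, the genes most like each member in log2(CPM + 1) were named by Pearson correlation, as a description over sums that share mice and differ in class. Nearest to Apoe was Htra1 at 0.92, which is also one of the class markers, followed by Mt1, Acsl3, Nat8f1 and Dbi. Nearest to Clu was Lix1 at 0.90, then Bcan, Nrcam, Mlc1 and Aldoc. Nearest to Lcat was Pnpla7 at 0.95, then Gpc5, Mt3, Gfap and Ppp1r3g, and nearest to Lrp1 was Atp1b2 at 0.94, then Carmil1, Slc30a10, Prelp and Lhfp. Abca1 was nearest to Abhd6 at 0.87, ahead of Glul, Limch1, Tcirg1 and Gpd2. Vldlr was nearest to 1700047M11Rik at 0.96, ahead of Il33, Trim59 and Tnfaip6. For Abcg1 the first was Dock5 at 0.80, with Eml1, Inpp5a, Chn2 and Tmem159 after it, and for Lpl it was Acta2 at 0.74, with Myh11, Olfr558, Asb2 and Il2ra after it.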

How the data were processed

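The values deposited by the authors are raw read counts for each gene symbol in each well. They rest on build mm10, and STAR 2.5.2, featureCounts 1.5.1 of Subread, FastQC and Seurat 2.3.1 are named, per the submitters' processing notes. Strand setting and annotation release: not given in the sources used here. A deposited table gives the mouse, treatment, sort day and project of each well, and the project is called pool here. Oligo-dT primers were used on 96 sorted cells of each mouse, per the labels' protocols. Counts are of reads, without molecular identifiers.

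Wells with 500 to 6000 detected genes were kept. Cells were clustered with scanpy 1.11.5 (2000 variable genes without the 8 genes and the listed lipid genes, 20 components, 15 neighbours, resolution 1) and named from marker lists, a marker counting in a cell from 10 counts. No doublet caller was run. Counts were summed per mouse, or per mouse and class from at least 5 cells for class contrasts and 10 for treatment contrasts, and tested with edgeR 4.0.16 (filterByExpr, TMM, quasi-likelihood test, Benjamini-Hochberg adjustment over all genes tested) in R 4.3.3. Sum levels are CPM, with 1 CPM added on log scales. The negative binomial dispersion in edgeR followed a trend over genes, without gene-wise values. Alternatives used limma 3.58.1 and DESeq2 1.42.0. Exact sign-flip and permutation tests ran over mice. A limit on a level at 0 is 3 counts over the group. Simulated counts tested the fits: of 100 genes changed 4-fold, 9% were called in the RGL or astrocyte-like fit of 11359 genes and 44% in the oligodendrocyte-like fit of 10778, and of 100 changed 2-fold 0% and 1%. The changed genes were drawn at random from all genes above a low level. These shares are therefore not those for abundant genes such as Apoe, whose intervals are given above.

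The 8 genes, the lists, the named-gene rule (genes of a list past the threshold, or those with the smallest p) and the tests were chosen with earlier results of these data known. Mice of a treatment are separate animals. Replicates with the same number share sort day and pool. Seed matches in 3′ UTRs, and 1 of the genes most like Vldlr, are not reported here. Lengths and positions come from GENCODE on GRCm38, the microRNA from RefSeq. Apoc2 and Lipc have no entry in the count table. Fitted folds against classes near 0 depend on the prior count and are not printed.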

Additional observations from a re-analysis of the deposited data

Results flagged for a closer look

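In 69 groups of 4 to 8 mice, 12 values of single mice were flagged as far from the others by Dixon's outlier test. The groups share mice and several values lie near 0, so no chance rate is set beside the 12. Apoe in RGL or astrocyte-like cells of scrambled mice was high in replicate 3, at 41657 CPM against 31045 to 32646 in the other 3. Antagomir replicate 4 was high in mural-like cells for Apoe, at 5777 CPM against 1.61 to 1357 in the other mice, where 1 cell held 40.2% of the Apoe counts of the whole class, and for Clu, at 784 CPM against 0 to 174. The same mouse was high for Clu in oligodendrocyte-like cells, at 128 CPM against 20.1 to 37.4 in the other antagomir mice. Antagomir replicate 3 was high for Lpl in mural-like cells, at 58.4 CPM against 0 to 17.2, and for Lrp1 in oligodendrocyte-like cells, at 6.62 CPM against 0 to 1.11 in the other antagomir mice.

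Abcg1 in RGL or astrocyte-like cells was high in scrambled replicate 1 over all mice, at 29.2 CPM from 1 of 23 cells, against 0 to 11.8, and in antagomir replicate 2 among antagomir mice, at 5.36 CPM against 0 to 0.09. In oligodendrocyte-like cells of scrambled mice Abcg1 was low in replicate 4, at 297 CPM against 343 to 351, and Abca1 was low in replicate 3, at 29.8 CPM against 71.6 to 80.0. Lrp1 was high in RGL or astrocyte-like cells of antagomir replicate 1, at 340 CPM against 179 to 206 in the other antagomir mice, and in mural-like cells of scrambled replicate 3, at 860 CPM against 239 to 418 in the other mice.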

How the results depend on the processing

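None of the 24 class differences of the 8 genes that passed changed direction under any alternative run. With the 4 mice of a pool, 12 lost their call in L5 and 12 in L6, where fewer mice enter the fit. Those of Apoe that did were against oligodendrocyte-like cells in L5 (2.06) and of oligodendrocyte-like against endothelial-like cells in L5 (2.67). Of the 24, 3 lost their call when 1 mouse was left out, as given above, and 3 under another setting. Genes called in L5 and L6 were 699 and 440 for RGL or astrocyte-like against oligodendrocyte-like, 894 and 821 against mural-like, 1277 and 608 against endothelial-like (2231 in a fit of these classes alone), 1244 and 1127 for oligodendrocyte-like against mural-like, 1388 and 758 against endothelial-like, and 508 and 321 for mural-like against endothelial-like (763 in a fit of these classes alone, 2270 with no replicate block). Of the 8 genes, in the same order, L5 and L6 called 2 and 3, 3 and 2, 3 and 2, 3 and 3, 1 and 1, with 0 in L5 for the last, which called 1 to 2 when 1 mouse was left out (2 without antagomir replicate 1 or 4). Without the replicate block Vldlr lost its call between RGL or astrocyte-like and oligodendrocyte-like cells (-3.29), and Abca1 between oligodendrocyte-like and mural-like cells (2.36, and 5.34 with RLE size factors). Vldlr between RGL or astrocyte-like and endothelial-like cells was the other one, in the fit of these classes alone.

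Treatment differences of the 8 genes stayed without a call and small ones turned sign. In RGL or astrocyte-like cells limma on mean log values gave -0.35 for Apoe, -0.37 for Clu and -0.50 for Abca1. Pool L5 gave -0.12 for Apoe, -0.089 for Clu and -0.14 for Lrp1, L6 -0.72 for Abca1, sort day 1 -0.21 for Abca1, and day 2 -0.043 for Clu and -0.16 for Lrp1. Without the cluster of few detected genes, an alternative chosen after seeing the data as was the fit of 2 classes, Abca1 was -0.025 and Lrp1 -0.11. In oligodendrocyte-like cells L5 gave -0.37 and day 1 -0.028 for Apoe, L6 -0.65 and day 1 -0.11 for Abca1, L6 -0.21 and limma -0.095 for Abcg1, and limma -0.11 for Vldlr. In all cells L5 gave -0.14 for Apoe and -0.039 for Clu, and day 2 -0.14 for Clu. The Apoe response difference between classes was -0.012 with RLE size factors, -0.18 in L6 and -0.033 at resolution 2. Leaving out 1 mouse gave -0.27 to 0.58 for Abca1, -0.077 to 0.18 for Clu and -0.19 to 0.35 for Lrp1 in RGL or astrocyte-like cells, -0.18 to 0.28 for Apoe and -0.23 to 0.28 for Abca1 in oligodendrocyte-like cells, and -0.19 to 0.28 for the Apoe response difference, with 0 to 1 genes called there (1 without scrambled replicate 3). The cause of these turns was not tested. DESeq2 called 8, 13 and 10 genes in RGL or astrocyte-like, oligodendrocyte-like and all cells. With sort day and pool as a replicate block, a pairing that correlations of -0.003 to 0.146 did not bear out, Apoe was 0.13, 0.11 and 0.31 in the same sets and no call changed. Of 40 shares, in the classes and in all kept cells, 12 were flagged as moved by 1 SD or more at 10 counts or more. After thinning to 200000 counts 2 were flagged. Vldlr in endothelial-like cells was 1 of the flagged shares each time, though it stayed at 0 with an SD of 0 and did not move.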
